A study of Mus musculus with 12 samples.

Results

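The genes described here are the receptors that use the common gamma chain (Il2rg), the receptor chains for interleukin-4 and interleukin-13, the cytokine Il15 and the kinase Jak3. The members were the rows of the raw count table named Il21r, Il2rg, Il2ra, Il2rb, Il4ra, Il13ra1, Il7r, Il15, Il15ra or Jak3, and all 10 were found among the 545 panel genes. Their transcripts were counted in microglia, the macrophages resident in brain tissue, sorted from the hippocampus of male Balbc mice at postnatal day 28. The 6 BDS samples came from pups that had spent 15 min a day away from the mother from postnatal day 1 to 21 (brief daily separation), and the 6 control samples from control pups, whose handling the labels do not describe further. All 12 mice came from different litters. From each sample 2 ng of RNA was amplified through 5 PCR rounds and counted on a NanoString nCounter panel of mouse immune genes, which reads 1 fluorescent barcode per captured transcript. In such a bulk sample, fewer cells of a type and less RNA per cell cannot be told apart.

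The common gamma chain is a signalling subunit that has no cytokine of its own. It pairs with a private chain for each of IL-2, IL-4, IL-7, IL-9, IL-15 and IL-21, and its cytoplasmic tail carries the kinase JAK3, which together with JAK1 phosphorylates STAT factors. Il4ra can also pair with Il13ra1, which gives a receptor without the gamma chain that responds to both IL-4 and IL-13 through STAT6. IL-15 is held on the cell surface by Il15ra and shown to neighbouring cells that carry Il2rb and the gamma chain. In lymphocytes these receptors maintain T, B and NK cells, while in macrophages and microglia IL-4 and IL-13 drive the state known as alternative activation.

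Total counts over all genes ran from 846414 to 1373840 in control samples and from 592159 to 1129520 in BDS samples. Counts were divided by a size factor from 6 housekeeping genes, and the quotient is called the normalized count below. BDS 21, BDS 25 and BDS 55 had the lowest total counts of all samples. Of the 10 microglial markers on the panel, 10 were present, that is, above the negative-control probes by 2 SD in at least 5 samples. Their summed normalized counts were 231115 to 246963 in control and 220081 to 287376 in BDS samples. Of the T cell markers 6 of 15 were present, and Cd3d, Cd3e, Cd28, Cd247, Zap70 and Thy1 were above background in 0 samples. Of the NK and cytotoxic markers 5 of 9 were present, and Klrb1, Eomes and Gzmb were above background in 0 samples. Present were also 3 of 8 B cell markers, 1 of 4 markers of monocytes and border macrophages, 2 of 5 neutrophil markers and 0 of 2 mast cell markers.

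Of the 10 members 8 were measurable, and Il2ra and Il2rb were not. Il2rg, Il4ra, Il21r, Il13ra1, Il7r, Il15, Il15ra and Jak3 were present. Il2ra, the chain that gives the IL-2 receptor its high affinity, had raw counts of 2 to 12 and was above background in 0 of 12 samples. Il2rb, the chain shared by the receptors for IL-2 and IL-15, had raw counts of 5 to 16 and was also above background in 0 of 12 samples. Il2rg itself lay close to the limit, with raw counts of 12 to 38 against sample limits of 15.3 to 21.8. It passed that limit in 5 of 6 control and 3 of 6 BDS samples. The 3 BDS samples below it were BDS 21, BDS 25 and BDS 55, those of lowest total count, at 12, 16 and 18 raw counts. Their normalized counts of 19.7, 24.7 and 21.1 lay among those of the other BDS samples or near them. On that scale their background limits were 29.8, 30.8 and 24.5, so these 3 values do not measure a level of Il2rg. The authors' deposited table lists Il2rg as above background in 92% of samples, where the limit used here gave 8 of 12. The other 7 genes were above background in all 12 samples. Capture and amplification differ between probes, so counts of different probes do not rank the genes by level.

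**Figure D1:**
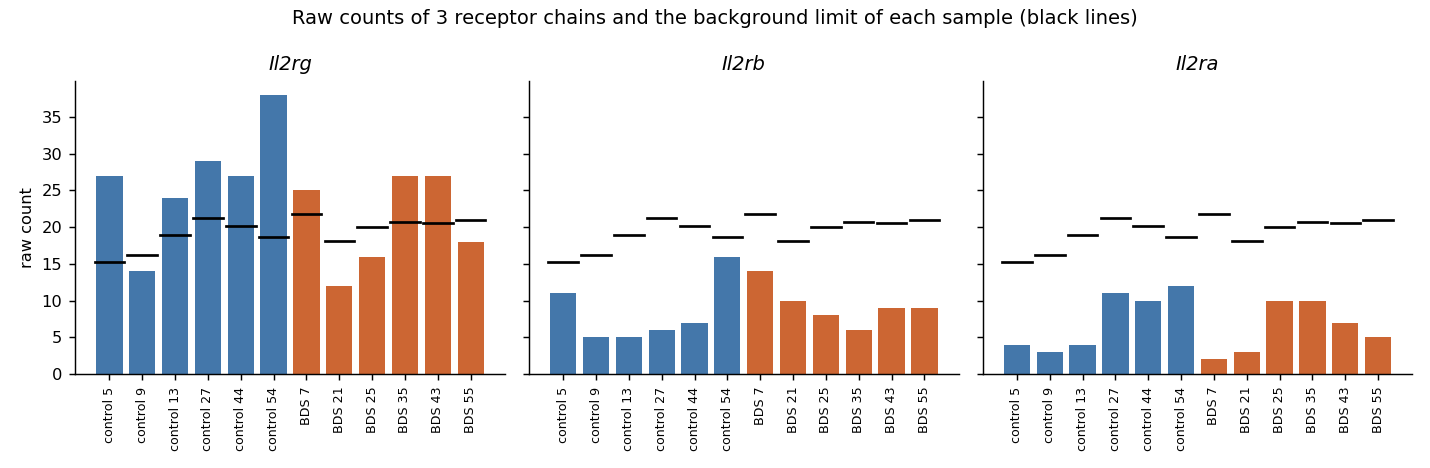
Raw barcode counts (vertical axis) of Il2rg, Il2rb and Il2ra in each of the 12 samples, control in blue and BDS in orange, with a black line at the background limit of that sample (mean of the negative controls plus 2 SD). Il2rg stands above the line in 8 of 12 samples, and Il2rb and Il2ra in 0.

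The comparison of BDS with control asked which of these genes differed after early separation. Il21r and Il4ra were lower in BDS at an unadjusted p under 0.05, and no gene of the panel passed the adjusted threshold. Of the 8 present members 2 were lower and 0 were higher at that unadjusted p, where 11.5% of the 357 tested genes were lower and 0.84% higher. Of the 8, 7 had a log2 fold change below 0, against 66.1% of all tested genes. Their median was -0.20, against -0.10 for all tested genes (edgeR quasi-likelihood test, smallest adjusted p = 0.17, 0 of 357 genes past 0.05 or 0.0%, 44 or 12.3% at an unadjusted p under 0.05). DESeq2 with the same size factors put 6 genes past 0.05, Il21r and Il4ra among them. It gave no adjusted p to some genes of lower counts, Il2rg, Il15 and Il15ra among them. Its adjustment thus ran over fewer genes than the 357 of edgeR. The number of lower genes over the panel, 41, was 22 without BDS 55, 23 without BDS 25 and 88 without BDS 7, so the background itself rests on single samples. With TMM scaling, which sets each sample to the tested genes themselves, 3.92% of genes were lower and 5.04% higher.

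Il21r, the private chain of the IL-21 receptor, had the smallest p of all genes tested. Its normalized counts had a lowest value of 2000 in control samples, a median of 2163 and a highest of 2448. In BDS samples they were 1343, 1634 and 1951. With this scaling all 6 BDS samples thus lay below all 6 controls, which held for 1.12% of the tested genes (4 of 357). With TMM scaling the groups overlapped, as BDS 35 (raw count 1988, TMM factor 0.917) then lay above control 13 (2068, factor 0.997). BDS 7 was the lowest sample of all. The means were 2214 ± 190.3 and 1660.3 ± 239.4 (SD, n = 6 per group), which gives a fold of 0.750 and, on the log2 scale, -0.41 ± 0.10 (SE; edgeR quasi-likelihood test, unadjusted p = 0.0011, adjusted p = 0.17). Before scaling the mean raw counts were 2517 and 1542. The log2 fold change was -0.31 with TMM scaling, -0.36 without BDS 7 and -0.35 without BDS 21, BDS 25 and BDS 55. Over 26 alternatives it ran from -0.47 to -0.31, each at an unadjusted p under 0.05. DESeq2 with the housekeeping factors put Il21r past the threshold (adjusted p = 0.040, adjusted over fewer genes than the 357 of edgeR). Over the alternatives the adjusted p ran from 0.040 to 0.77.

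Il4ra binds IL-4 and forms the receptors for both IL-4 and IL-13. Its normalized counts were 850.6 at the lowest, 1039 at the median and 1311 at the highest in controls. In BDS samples these values were 681.4, 762.3 and 975.3. Here 4 of 6 BDS samples lay below the lowest control, BDS 7 and BDS 21 lay above it, and all 6 lay below the control mean. The means were 1071 ± 173 and 797.8 ± 105.8 (SD, n = 6), or -0.42 ± 0.12 on the log2 scale (SE; edgeR quasi-likelihood test, unadjusted p = 0.0032, adjusted p = 0.17). This was the 6th smallest p on the panel. Under the 26 alternatives the log2 fold change ran from -0.49 to -0.29, each at an unadjusted p under 0.05, with adjusted p-values from 0.043 to 0.77. The 0.043 came from DESeq2 with the housekeeping factors, which adjusted over fewer genes than edgeR. The log2 fold change was -0.33 with TMM scaling and -0.38 without BDS 21, BDS 25 and BDS 55.

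Il4ra and Il21r are neighbours on mouse chromosome 7, with 0 protein-coding genes between them in RefSeq GRCm38.p6, as are Il2ra and Il15ra on chromosome 2. The normalized counts of Il4ra and Il21r had a Pearson r of 0.48 over the 12 samples (permutation p = 0.11; Spearman rho = 0.43, permutation p = 0.16; adjusted p = 0.35 and 0.49 over 52 relations). Within the control group r was 0.18 and within the BDS group -0.64 (exact permutation p = 0.69 and 0.18, n = 6 each). Without the 2 samples farthest from the Il21r median r was 0.64. Within neither group was a relation between these neighbours shown. RefSeq windows of 250 bases upstream of a start site were found for 8 of the 10 members, in 9 windows. They were searched on both strands for TTCNNNGAA, a spacing bound by STAT factors, for the STAT6 spacing, in which 4 bases lie between TTC and GAA, and for AGGAAG, a core bound by ETS factors such as the macrophage factor PU.1. TTCNNNGAA was found in 1 of 9 windows, that of Il7r, and in 7.02% of all 32851 windows. The STAT6 spacing was found in 0 of 9, against 5.85%. AGGAAG was found in 5 of 9, against 29.5%. The parts of 3 windows that lie outside the annotated gene are shown, Il4ra and Il21r as the neighbours with the smallest p among the members and Il7r for its STAT spacing (GRCm38.p6, 5′ to 3′ on the strand of the gene, matches in capitals).
Il4ra, chr7:125552021-125552270, plus strand: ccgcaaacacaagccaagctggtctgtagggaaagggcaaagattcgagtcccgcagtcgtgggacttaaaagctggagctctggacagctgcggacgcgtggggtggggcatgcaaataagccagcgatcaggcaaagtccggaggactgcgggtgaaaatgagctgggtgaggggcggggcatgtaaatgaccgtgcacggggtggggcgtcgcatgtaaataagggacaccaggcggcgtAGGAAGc
Il21r, chr7:125603179-125603251, plus strand: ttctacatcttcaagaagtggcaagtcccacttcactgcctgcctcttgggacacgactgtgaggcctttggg
Il7r, chr15:9529942-9530126, minus strand: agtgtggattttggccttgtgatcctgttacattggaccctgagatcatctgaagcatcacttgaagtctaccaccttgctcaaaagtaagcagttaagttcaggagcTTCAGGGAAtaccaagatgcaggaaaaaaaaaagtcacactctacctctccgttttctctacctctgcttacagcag
In the Il4ra stretch the capitals mark AGGAAG just before the start site, and in the Il7r stretch TTCNNNGAA. The Il21r stretch holds none of the 3 motifs. A match describes letters in a window and was not tested as a binding site.

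Il13ra1 is the chain that joins Il4ra in the receptor without the gamma chain. Its normalized counts were 1576 at the lowest, 1889.7 at the median and 2230.0 at the highest in controls. In BDS samples they were 1141, 1338 and 2508. Of the 6 BDS samples 4 lay below the lowest control, while BDS 7 lay above the highest. The means were 1928 ± 246 and 1524 ± 519 (SD, n = 6), and the coefficient of variation was 12.7% in controls and 34.0% in BDS. The log2 fold change of -0.34 ± 0.18 (SE) did not pass (edgeR quasi-likelihood test, unadjusted p = 0.074, adjusted p = 0.40). Without BDS 7 it was -0.54 ± 0.12 (SE; edgeR quasi-likelihood test, adjusted p = 0.047), and Il13ra1 was then 1 of 4 genes past the threshold, 1.12% of those tested. In limma with a pseudocount of 1 or 10 its unadjusted p was 0.0496 or 0.0446 (adjusted p = 0.347 and 0.345), where 12% and 12.6% of genes were lower. In edgeR its log2 fold change was -0.051 without BDS 21, BDS 25 and BDS 55 (unadjusted p = 0.773, edgeR).

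Jak3, the kinase bound to the gamma chain, had the same lowest and highest samples as Il13ra1, BDS 25 and BDS 7. Its normalized counts were 1372 at the lowest, 1739 at the median and 2269 at the highest in controls, and 912.6, 1352 and 2404 in BDS samples. BDS 7 was again above every control, and 3 BDS samples lay below the lowest control. The means were 1757 ± 312 and 1455 ± 507 (SD, n = 6), or -0.27 ± 0.19 on the log2 scale (SE; edgeR quasi-likelihood test, unadjusted p = 0.18, adjusted p = 0.51). Without BDS 7 the log2 fold change was -0.47 (unadjusted p = 0.0056, adjusted p = 0.069, edgeR), in a comparison where 24.6% of the panel was lower at an unadjusted p under 0.05. Without BDS 21, BDS 25 and BDS 55 it was 0.0051.

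**Figure D2:**
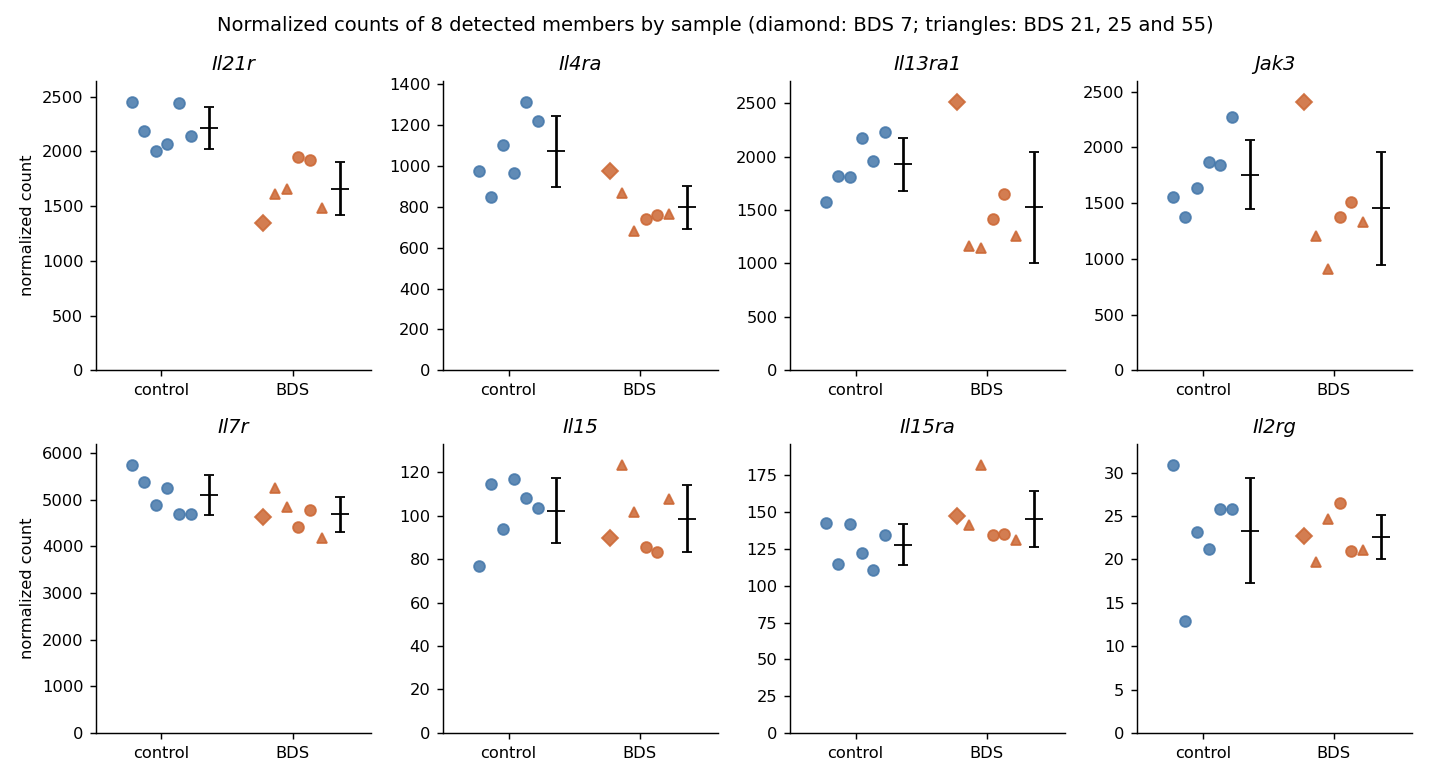
Normalized counts (vertical axis from 0, a scale of its own per gene) of the 8 present members in 6 control (blue) and 6 BDS (orange) samples, with the mean and SD beside each group as a black bar; sideways spread only separates the points. With this housekeeping scaling the Il21r groups do not overlap, and BDS 7 (diamond) is the lowest sample for Il21r and the highest for Il13ra1 and Jak3.

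Il13ra1 and Jak3 followed each other from sample to sample. Their Pearson r was 0.93 over the 12 samples (permutation p = 1e-05, the smallest that 100000 resamples can give; Spearman rho = 0.92, permutation p = 3e-05; adjusted p = 0.00017 and 0.00052 over 52 relations). It was 0.78 within controls and 0.95 within BDS (exact permutation p = 0.064 and 0.0014, n = 6 each), 0.90 without the 2 samples farthest from the Il13ra1 median and 0.89 with TMM scaling. Of the 28 pairs of present members, 2 had an adjusted p under 0.05. The other was Il4ra with Jak3, at r = 0.75 (permutation p = 0.0052, adjusted p = 0.039; rho = 0.76, permutation p = 0.0055). For that pair r was 0.73 within controls and 0.80 within BDS (exact permutation p = 0.11 and 0.063, n = 6 each), 0.70 without the 2 farthest samples and 0.60 with TMM scaling. The median r over the 28 pairs was 0.05.

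Both genes also moved with Polr2a, the largest subunit of RNA polymerase II, a housekeeping gene of the panel that was not used for scaling. Jak3 had r = 0.96 and rho = 0.99 with Polr2a (permutation p = 1e-05 for both, adjusted p = 0.00017 and 0.00052), r = 0.96 within controls and 0.95 within BDS (exact permutation p = 0.0042 and 0.0014, n = 6 each). Il13ra1 had r = 0.95 and rho = 0.92 (permutation p = 1e-05 and 2e-05), 0.84 within controls and 0.97 within BDS (exact permutation p = 0.044 and 0.0014, n = 6 each). Without the 2 samples farthest from the Polr2a median r was 0.96 for Jak3 and 0.91 for Il13ra1. Among all 357 tested genes these were the 4th and the 5th highest r with Polr2a, where the median gene had 0.24 and 16 genes exceeded 0.9. With TMM scaling they ranked 3rd and 6th, at 0.95 and 0.93. Polr2a itself had 337, 336 and 471 normalized counts in BDS 21, BDS 25 and BDS 55, 1168 in BDS 7 and 536 to 1173 in controls. With the Polr2a level as a covariate the log2 fold change was -0.056 ± 0.089 for Il13ra1 and 0.066 ± 0.086 for Jak3 (SE; unadjusted p = 0.54 and 0.46, edgeR). Il4ra had r = 0.72 with Polr2a (rho = 0.78; permutation p = 0.0096 and 0.0043, adjusted p = 0.062 and 0.037), 0.65 within controls and 0.60 within BDS (exact permutation p = 0.16 and 0.22, n = 6 each) and 0.71 without the 2 farthest samples. Il21r had r = 0.27 (rho = 0.33; permutation p = 0.40 and 0.30, adjusted p = 0.74 and 0.65), with -0.28 in both groups and -0.01 without the 2 farthest samples. With the same covariate the log2 fold change was -0.29 for Il4ra and -0.46 for Il21r (unadjusted p = 0.029 and 0.0013; adjusted p = 0.75 and 0.48, edgeR), where 5.6% of genes were lower. Rpl19, another housekeeping gene left out of the scaling, had r = -0.80 with Il13ra1 (rho = -0.66; permutation p = 0.00099 and 0.024, adjusted p = 0.0103 and 0.139), with -0.57 within controls, -0.73 within BDS (exact permutation p = 0.256 and 0.0708, n = 6 each) and -0.73 without the 2 farthest samples. The housekeeping size factor itself had r = 0.83 with Il13ra1 and 0.77 with Jak3 (rho = 0.87 and 0.78; permutation p = 0.00075 and 0.0037 for r, 0.00042 and 0.00369 for rho; adjusted p = 0.00975 and 0.0321 for r, 0.00546 and 0.0374 for rho). Within controls these were 0.96 and 0.73 and within BDS 0.74 and 0.71 (exact permutation p = 0.00694, 0.0889, 0.0806 and 0.0944, n = 6 each), and without the 2 farthest samples 0.66 and 0.56. With that factor as a covariate the log2 fold change was -0.10 for Il13ra1, -0.032 for Jak3, -0.41 for Il21r and -0.39 for Il4ra (edgeR, unadjusted p = 0.460, 0.846, 0.0031 and 0.0136). The part of RNA quality in these differences was not tested.

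**Figure D3:**
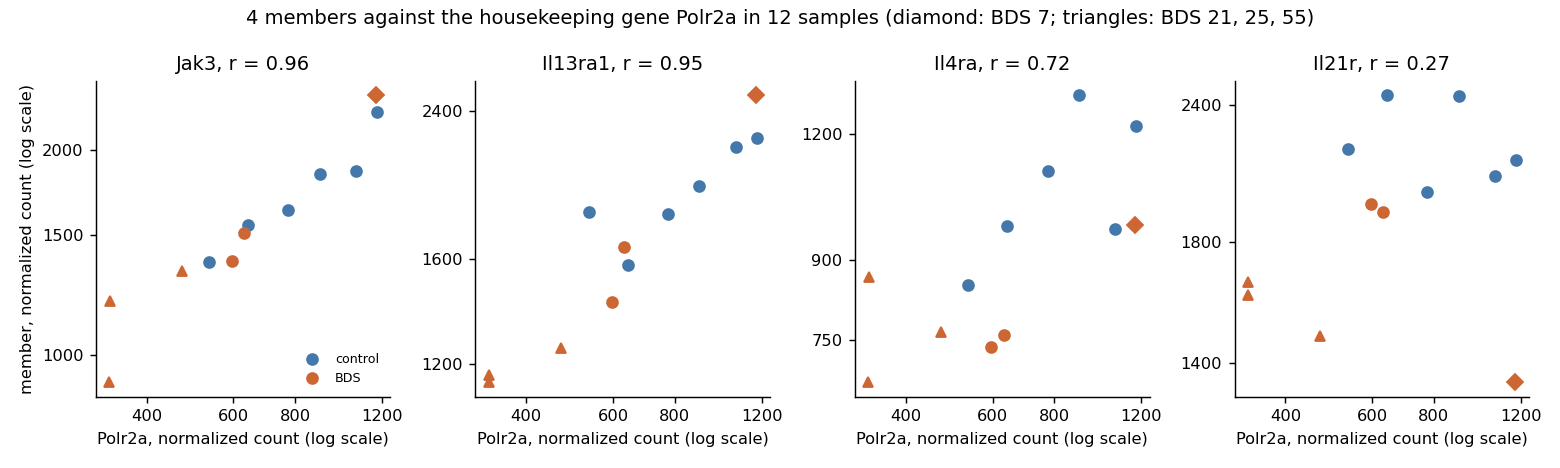
Normalized counts of Jak3, Il13ra1, Il4ra and Il21r (vertical axes, log scale) against those of Polr2a (horizontal axis, log scale) in 12 samples, control in blue and BDS in orange, with Pearson r of the log2 values. Jak3 and Il13ra1 rise with Polr2a in both groups, whereas in Il21r all 6 BDS samples lie below all 6 controls with this housekeeping scaling.

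Il7r, the alpha chain of the IL-7 receptor, was counted well above background in every sample. Its normalized counts were 4683 at the lowest, 5060.3 at the median and 5737 at the highest in controls, and 4175, 4709 and 5245 in BDS samples. The groups overlapped, with 3 BDS samples below the lowest control and BDS 21 above the control mean. The log2 fold change was -0.12 ± 0.08 (SE; edgeR quasi-likelihood test, unadjusted p = 0.14, adjusted p = 0.45) and -0.033 with TMM scaling. It was -0.17 with the housekeeping size factor as a covariate and -0.18 with Polr2a (edgeR, unadjusted p = 0.0495 and 0.0363, adjusted p = 0.775 and 0.747). With each of these covariates 3 members were lower at an unadjusted p under 0.05, Il21r, Il4ra and Il7r, where 6.16% and 5.6% of all genes were. This gene varied little, with a coefficient of variation of 8.31% in controls and 7.90% in BDS. Among the T cell markers of the same samples, Cd27, Tcf7 and Cd5 were above background in 12 of 12 samples and Lck in 11, while Cd3d and Cd3e were above it in 0. The part of such cells in the level of Il7r was not tested.

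Il15ra was the 1 present member with a log2 fold change above 0. Its normalized counts were 111 at the lowest, 128 at the median and 143 at the highest in controls, and 131, 138 and 182 in BDS samples. All 6 BDS samples lay above the control mean and 2 above the highest control. The log2 fold change of 0.18 ± 0.12 (SE) did not pass (edgeR quasi-likelihood test, unadjusted p = 0.16, adjusted p = 0.49). With TMM scaling it was 0.28 (unadjusted p = 0.046, adjusted p = 0.52, edgeR). Without BDS 25, the highest sample, it was 0.11 (unadjusted p = 0.38, edgeR), the lowest of 26 alternatives. Before scaling the mean raw count of Il15ra was 146 in controls and 132 in BDS, the opposite order, but raw counts are not corrected for the total counts of each sample. The direction was thus seen only after scaling. It was the same in all 26 alternatives, such as 0.25 with total endogenous counts as the scaling. Il15, the cytokine that Il15ra presents, had normalized counts of 76.6, 106 and 117 in controls and 83.3, 95.8 and 123 in BDS samples, given as lowest, median and highest. The groups overlapped throughout, with a log2 fold change of -0.064 (2 SE either side: -0.35 to 0.22; edgeR quasi-likelihood test, adjusted p = 0.82) that turned to 0.029 with TMM scaling.

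Il2rg had 12.9, 24.5 and 30.9 normalized counts in controls and 19.7, 21.9 and 26.5 in BDS samples, as lowest, median and highest. Control 9 was the lowest and control 5 the highest of the 12 samples, so the controls enclosed all BDS samples. The log2 fold change was -0.036 (2 SE either side: -0.42 to 0.34; edgeR quasi-likelihood test, adjusted p = 0.93), and 0.066 with TMM scaling. At counts this near background a change of up to about that interval was not detectable. A ratio of 2 counts of the same sample does not depend on scaling, so each of the other 7 present members was also divided by Il2rg, and the groups were compared on that ratio. Il2rg was not above background in 4 of the 12 samples. The log2 ratio of Il21r to Il2rg averaged 6.61 ± 0.40 over the controls and 6.19 ± 0.22 over the BDS samples (SD, n = 6; two-sided exact permutation test, p = 0.0195, and 0.136 once adjusted for 7 ratios). The ratio of Il4ra to Il2rg differed by -0.42 on the log2 scale (exact permutation p = 0.052, adjusted p = 0.18), and by -0.53 without control 5, the 1 ratio and setting that passed (exact permutation p = 0.0065, adjusted p = 0.045). The other 5 ratios had exact permutation p-values of 0.19 to 0.85. With background subtracted the differences were 0.058 for Il21r and 0.057 for Il4ra, so these ratios rest on counts of Il2rg at the limit. With Jak3 as the denominator, 0 of 7 ratios passed (smallest adjusted p = 0.39, exact permutation), with Il15ra to Jak3 higher by 0.50 at p = 0.056.

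**Figure D4:**
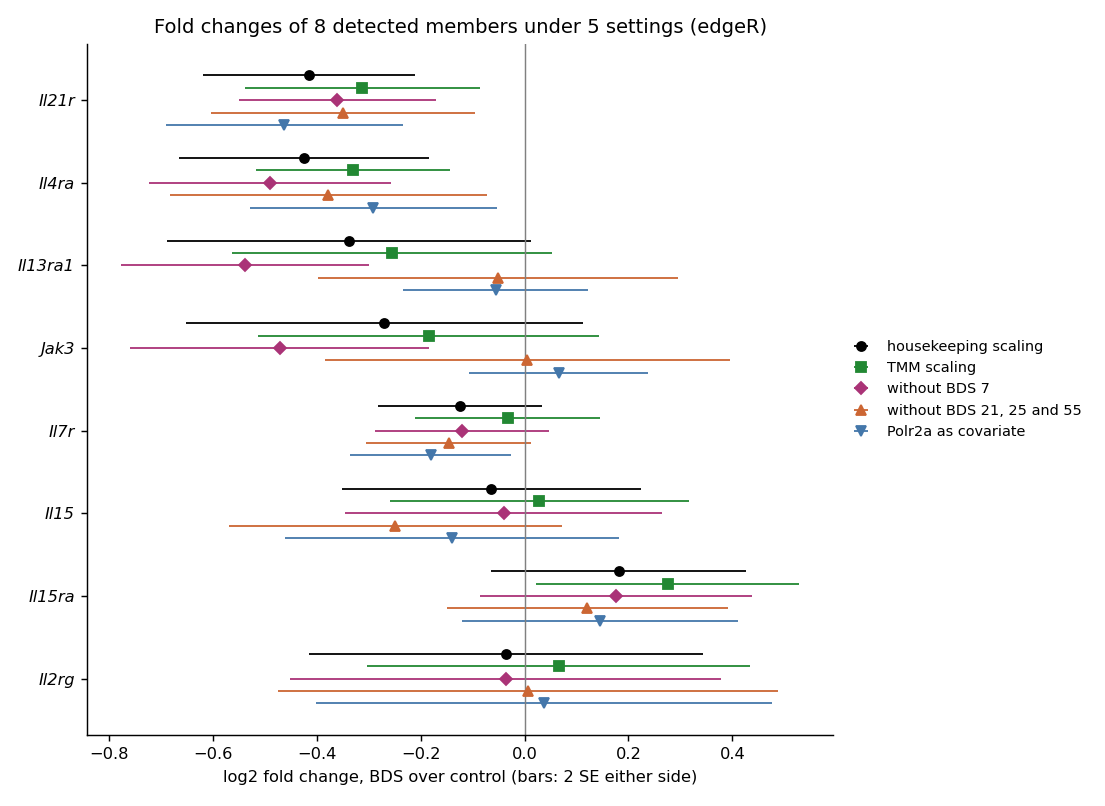
Log2 fold changes of BDS over control (horizontal axis; bars span 2 SE either side) of the 8 present members from edgeR under 5 settings. Il21r and Il4ra lie below 0 in all 5, while Il13ra1 and Jak3 move from -0.54 and -0.47 without BDS 7 to -0.051 and 0.0051 without BDS 21, BDS 25 and BDS 55.

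Panel genes that varied with Il2rg were ranked by Pearson r. The 3 highest of 356 were Icos, a T cell co-stimulator, at 0.77, Masp1, a complement protease, at 0.71 and Ets1, a lymphoid transcription factor, at 0.66 (permutation p = 0.0053, 0.016 and 0.045, adjusted p = 0.95 for each). Spearman rho was 0.67, 0.60 and 0.24 (permutation p = 0.020, 0.043 and 0.44, adjusted p = 0.86 for each). Without the 2 samples farthest from the Il2rg median r fell to 0.32, 0.34 and 0.24, so these relations rest on those samples. Without control 9 alone r was 0.48, 0.34 and 0.042. Within controls r was 0.96, 0.82 and 0.88, and within BDS 0.03, 0.14 and 0.20 (n = 6 each). Jak3, which binds the gamma chain, ranked 155th, at 0.18 (permutation p = 0.57; rho = 0.33, permutation p = 0.30; adjusted p = 0.95 and 0.86).

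The authors' deposited table gives folds of BDS over control of 0.76 for Il21r, 0.75 for Il4ra, 0.80 for Il13ra1, 0.84 for Jak3, 0.93 for Il7r and 1.15 for Il15ra. Its unadjusted p-values, from a test run by the authors, are 0.0022 for Il21r and 0.0078 for Il4ra in the authors' deposited table, and above 0.05 for the other members.

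The rest of the pathway was read from lists of ligands, kinases and STAT factors, and genes that IL-4 regulates in macrophages. Of 8 ligands 4 were present, and 0 of these passed an unadjusted p of 0.05, beside 12.3% of all tested genes. Il2, Il4 and Il9 were above background in 0 of 12 samples and Il7 in 1. Besides Il15, Tslp was above background in all 12 samples and Il13 and Il21 in 9 each. Il21, the ligand of Il21r, had 21.1 ± 5.0 and 25.7 ± 5.7 normalized counts (SD, n = 6), a level at the limit of detection (edgeR, unadjusted p = 0.18). Crlf2, which joins Il7r to form the TSLP receptor, was present with a log2 fold change of 0.20 ± 0.22 (SE; adjusted p = 0.675, edgeR). Of 11 present kinases, STAT factors and inhibitors other than Jak3, 2 were lower and 0 were higher at an unadjusted p of 0.05, beside 11.5% and 0.84% of all tested genes. Of the same 11, 8 were below 0, beside 66.1% of all, and the median log2 fold change was -0.10, the same as that of all genes. Stat5a, a factor downstream of the gamma chain, averaged 362 ± 19 (control) and 306 ± 46 (BDS) normalized counts (SD, n = 6; edgeR, unadjusted p = 0.044, adjusted p = 0.38). Its log2 fold change of -0.24 was -0.076 without BDS 21, BDS 25 and BDS 55. Stat6, which IL-4 and IL-13 activate, had 1201 ± 104 and 1262 ± 175 (edgeR, unadjusted p = 0.50, named outside the rule for its place in the pathway). Stat3 was at a log2 fold change of -0.20 (edgeR, unadjusted p = 0.12). Of 15 listed genes regulated by IL-4, 7 are on the panel and 4 of these were present. Of those 4, 0 passed an unadjusted p of 0.05, beside 12.3% of all tested genes. Irf4, a transcription factor of alternative activation, had a log2 fold change of -0.27 ± 0.17, the chemokine Ccl24 -0.18 ± 0.14 and Cebpb 0.13 ± 0.19 (SE; edgeR, unadjusted p = 0.138, 0.225 and 0.508).

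Marker genes of other cells were set beside these members because lymphocytes carry many of them. The summed normalized counts of the T cell markers were 592 to 700.0 in controls and 597 to 719 in BDS, those of the NK and cytotoxic markers 271 to 535 and 252 to 344, those of the B cell markers 226 to 338 and 206 to 458, and those of the monocyte and border macrophage markers 299 to 516 and 268 to 462. Neutrophil markers summed to 3114 to 3709 and 3074 to 3672, and mast cell markers to 10.3 to 19.4 and 9.86 to 17.6. Single genes made up most of some sums. Control and BDS means were 3294 and 3315 for Csf3r (neutrophils), 377 and 292 for Ccr2 (monocytes) and 377 and 381 for Cd27 (T cells). Of the other neutrophil markers, S100a8 was above background in 6 samples, S100a9 in 1 and Cxcr2 and Camp in 0. Among the NK and cytotoxic markers, Prf1 averaged 124.6 ± 99.8 in controls and 78.2 ± 19.9 in BDS (SD, n = 6). Its highest value in any sample was 325. Of the 27 present genes of all marker lists, the microglial one included, 3 passed an unadjusted p of 0.05, beside 12.3% of all tested genes, with Lck and Ccr2 lower and Tnfrsf13b higher (edgeR, unadjusted p = 0.0093, 0.049 and 0.020). Their part in the levels of Il21r and Il4ra was not tested.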

How the data were processed

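Raw barcode counts per probe and normalized values were deposited by the authors for 12 samples. The deposited normalized values are scores here, since the authors had scaled them (to positive control probes and to housekeeping genes) and whole numbers remain, per the labels. The same deposited table gives group means, a fold (a ratio), a p-value and, in percent, how many samples exceeded background. The software behind the counts is not named in these sources. Groups came from the sample titles, and no replicate number was shared between groups. The members and gene lists were chosen with earlier results of these data known.

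Each sample was scaled by its geometric mean over 6 genes (Tbp, Sdha, Polr1b, Oaz1, Gapdh and Alas1). Of 545 genes 357 exceeded the 8 negative controls (mean + 2 SD) in at least 40% of samples. BDS was tested against control in edgeR 4.0.16 (quasi-likelihood, Benjamini-Hochberg adjustment over 357 genes, threshold 0.05), checked on simulated counts. Ratios used two-sided exact permutation tests (924 rearrangements, smallest p 0.0022) and correlations of log2 normalized counts with a pseudocount of 1 used 100000 permutations. All 10 members were named, with up to 3 present genes of smallest p per list, of which 1 is not reported here. Alternatives used DESeq2 1.42.0, limma 3.58.1, other scalings, filters, covariates and left-out samples. Ratios to Jak3, correlations between members and with Polr2a, and the Polr2a covariate were added after seeing the data. The p-values measure the spread between litters sampled once.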

Additional observations from a re-analysis of the deposited data

Results flagged for a closer look

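One sample stood far from the other 5 of its group among 20 groups examined, where chance does this in about 1 of 20. Il15ra was at 182 normalized counts in BDS 25, above the other BDS samples, which ran from 131 to 147.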

How the results depend on the processing

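Il21r, Il4ra, Il13ra1 and Il7r kept log2 fold changes below 0 and Il15ra above 0 in all 26 alternatives. Il2rg turned to 0.066 with TMM scaling, 0.047 with total endogenous counts, 0.061 with DESeq2's own size factors, 0.024 with the deposited values, 0.0066 without BDS 21, 25 and 55 and 0.037 with the Polr2a covariate. Il15 turned to 0.029, 0.0087 and 0.010 under the first 3 of these, and Jak3 to 0.0051 without BDS 21, 25 and 55 and 0.066 with the Polr2a covariate. With each sample left out, Il2rg ran from -0.16 to 0.050, and with background subtracted it was -0.49 (limma). Of the log2 ratios to Il2rg, background subtraction turned those of Il21r, Il4ra, Il13ra1, Il7r, Il15 and Jak3 to 0.058, 0.057, 0.093, 0.36, 0.38 and 0.16. With each sample left out, those of Il7r and Il15 ran from -0.19 to 0.056 and from -0.22 to 0.15, and 0 to 1 ratios passed. The cause was not tested.

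Members lower at an unadjusted p under 0.05 numbered 2 to 4 with each sample left out (4 without BDS 7, where 24.6% of all tested genes were lower). At that p 1 member was higher with TMM scaling and with DESeq2's own size factors, Il15ra in both. Over the panel, 41 genes were lower and 3 higher. These were 14 and 18 with TMM scaling, 13 and 19 with total counts, 14 and 13 with DESeq2's own size factors, 20 and 0 without BDS 21, 25 and 55 and with the Polr2a covariate, and 22 and 0 with the housekeeping factor as covariate. Higher genes numbered 5 with the 5 housekeeping genes, 7 and 5 in limma with pseudocounts of 1 and 10, 8 with the deposited values, 1 with background subtracted and 12 with no filter. With each sample left out, 22 to 88 were lower and 2 to 10 higher (6 without control 5, 7 without control 44, 8 without BDS 7, 9 without BDS 35, 10 without BDS 43). Past the adjusted threshold were 6 with DESeq2 and housekeeping factors (adjusted over fewer genes than in edgeR) and 0 to 4 with each sample left out. No paired analysis was possible because the groups share no replicate number. Il2rg, Il13 and Il21 are limited by counts near background.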
